A study of Mus musculus with 6 samples.

Results

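The ion channels of islet excitability taken here are 34 genes given as a list: potassium channels, calcium channels, sodium channels, the pacemaker channel gene Hcn2 and cation channels of the TRPM family. Each was linked to a locus of the assembled transcripts by the lengths of its exons and introns, and where several loci matched, the locus with most counts was taken. All 34 were found, among 39470 loci counted, and all 34 were among the 23983 loci tested. RNA came from pancreatic islets, small clusters of endocrine cells, of C57BL/6 mice. They were 14 weeks old when killed and had been fed for 8 weeks, 1 group with high fat food and the other with normal food, and each group gave 3 libraries. C57BL/6 is an inbred laboratory strain, and no transgene or deletion is named for either group. The columns of the count table named the diets by abbreviation: ND was taken to be the normal diet, and HDR, an abbreviation that no label explains, to be the high fat diet, so every direction below rests on that reading. The labels do not say whether the libraries came from separate animals, and p-values then measure the spread between libraries, which may be technical.

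A beta cell is an electrically excitable cell. Glucose metabolism closes potassium channels that are sensitive to ATP, the membrane depolarises, voltage-gated calcium channels open, and the entering calcium triggers the release of insulin granules. Other potassium channels repolarise the cell and set the length and spacing of its bursts, while sodium and TRPM channels add depolarising current. Alpha cells, delta cells and nerve fibres in the islet carry many of the same channels, so a level in whole islets is a sum over cell types.

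Libraries held between 104657337 and 135353777 counted reads. High fat library 3 stood apart from the others of its diet: its score on principal component 2 was -59.4, and those of high fat libraries 1 and 2 were 32.3 and 25.5. Levels below are CPM (counts scaled to a common library size) after TMM normalisation, a scaling that corrects for composition between libraries, and levels that are set side by side between genes are CPM per kilobase of exon. Fold changes are high fat over normal diet, from edgeR's quasi-likelihood test fitted to all loci, with a threshold of 0.05 on the Benjamini-Hochberg adjusted p.

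In high fat islets 2 potassium channel genes rose, Kcnn3 by 1.53-fold and Kcnk1 by 1.44-fold. In the same islets 4 genes fell: Kcnk3, a tandem-pore potassium channel gene, to 0.692 of the normal diet level, the calcium channel pore genes Cacna1a and Cacna1e to 0.693 and 0.363, and the auxiliary subunit gene Cacna2d2 to 0.707. The other 28 did not pass the test. Those 2 genes are 5.88% of the 34, where 5.95% of all loci tested were called higher, and the 4 genes are 11.8% of the 34, where 4.86% of all loci were called lower. The share called higher was thus that of the background, and the share called lower was above it by a margin that rests on 4 genes and was not tested. The median log2 fold change was -0.07 over the 34 genes and -0.05 over all loci tested.

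**Figure D1:**
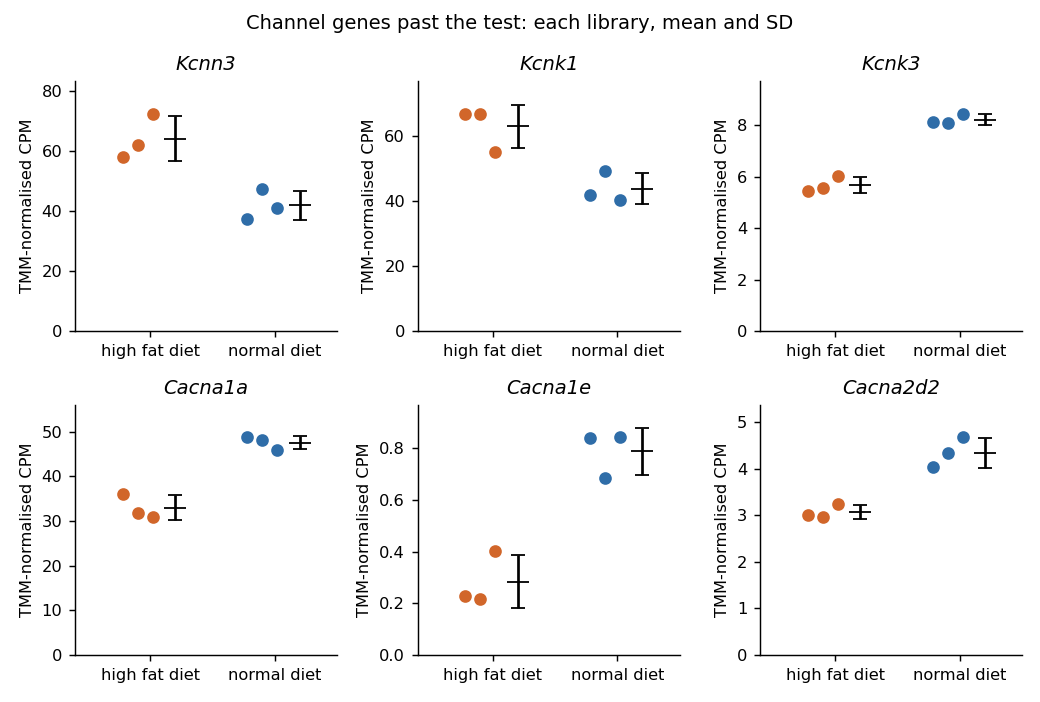
TMM-normalised CPM of the 6 channel genes that passed the test, 1 panel per gene, with high fat diet libraries on the left and normal diet libraries on the right of each panel; points are single libraries and bars are the mean and SD of 3. In each panel the libraries of the diets do not overlap, with Kcnn3 and Kcnk1 above and the other 4 below their normal diet levels.

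The calls depended on single libraries and on the fit. Without high fat library 1 or 2, or without normal diet library 1, 2 or 3, edgeR called 0 of the 34 genes, with lowest adjusted p-values among them of 0.0502, 0.0733, 0.10, 0.0775 and 0.0830. At an unadjusted p under 0.05, 5, 4, 3, 3 and 4 of the genes were higher in these 5 fits, and 9, 8, 8, 7 and 8 were lower. Of all loci tested, 7029 of 24927, 6399 of 25280, 5500 of 24558, 6286 of 24925 and 6294 of 24580 were at that level in either direction. At the adjusted threshold 0.513%, 0.340%, 0%, 0% and 0% of all loci passed. Without high fat library 3, 3 of the genes were higher and 7 lower, where 12.4% and 7.87% of all loci (20.2% in both directions) were called. The 4 calls added there were Kcnk16 higher, at a log2 fold change of 0.52 (adjusted p = 0.0099), and Cacna1h, Trpm2 and Trpm5 lower, at -0.56 (adjusted p = 0.017), -0.38 (adjusted p = 0.0499) and -0.57 (adjusted p = 0.024).

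With other tools the counts were as follows. DESeq2's Wald test called 3 of the genes higher and 6 lower (7.32% and 4.98% of 33177 loci), and edgeR with DESeq2's size factors 2 and 3 (6.93% and 4.60% of 23983 loci). Without the filter on low counts edgeR called 2 and 3 (3.42% and 3.64% of 33177 loci). The 33177 loci include those that the filter on low counts removes, so their shares do not have the base of the others. Cyclic loess normalisation with limma called 0 and 1, Cacna1a (adjusted p = 0.0268, 1.04% and 0.967% of all loci). In that fit 2 and 11 of the genes were at an unadjusted p under 0.05, as were 5446 of all 23983 loci tested. With the mean level of acinar (digestive enzyme) markers as a covariate edgeR called 0 of the genes and 0 loci in all. At an unadjusted p under 0.05, 2 of the genes were higher and 9 lower, and 4418 of all 23983 loci tested were at that level. The summed acinar markers took 6079 to 13041 CPM in high fat libraries, against 4189 to 7995 CPM in normal diet libraries.

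The high fat libraries lay wholly above the normal diet libraries for 6 of the 34 genes (17.6%, against 18.8% of all loci tested) and wholly below for 10 (29.4%, against 20.4%). For 18 genes the diets overlapped. Below 0 in log2 fold change were 21 genes and above 0 were 13, where 54.5% of all loci tested were below 0.

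**Figure D2:**
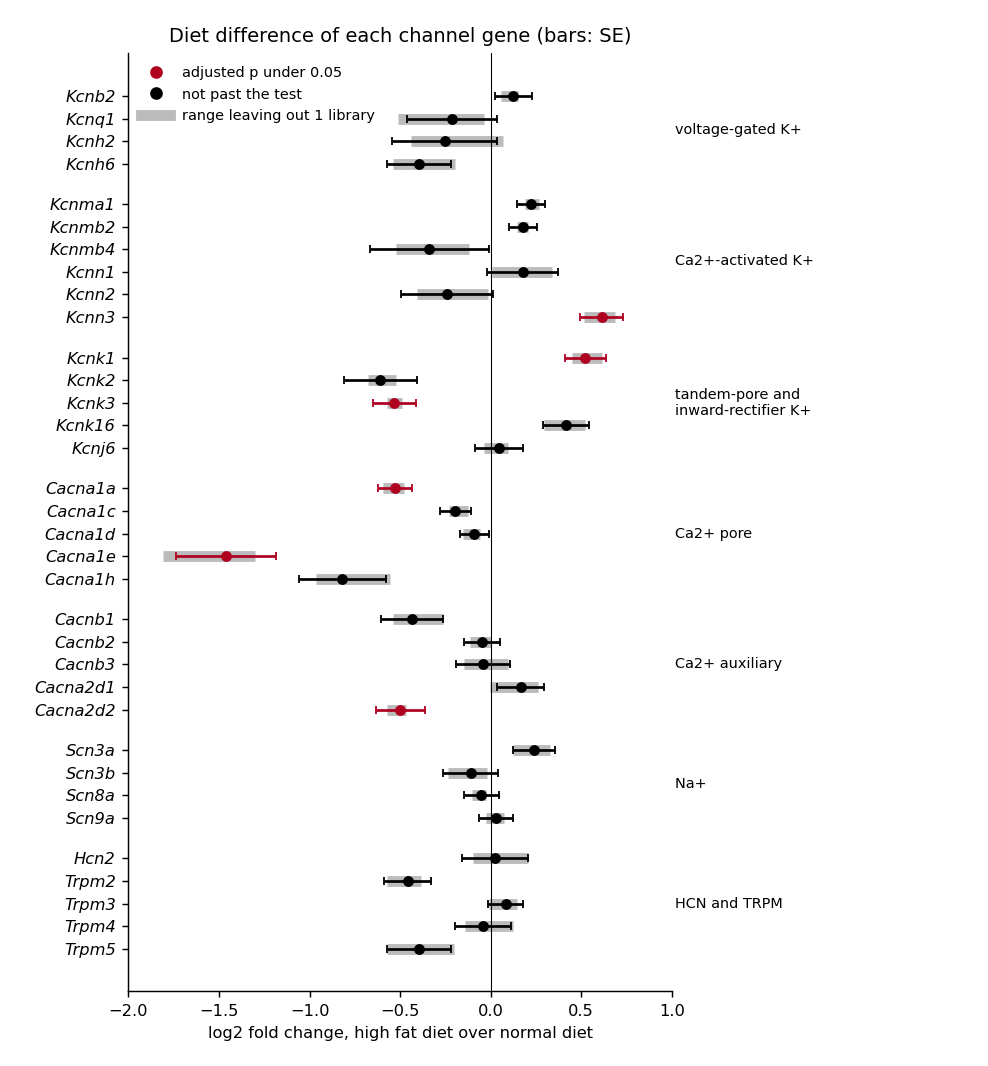
Log2 fold change (high fat over normal diet) of each of the 34 channel genes, by family, with points in red where the adjusted p was under 0.05; black or red bars are the SE and grey bars the range when 1 library is left out. All 5 calcium channel pore genes lie below 0, and the grey bars of the 6 called genes do not reach 0.

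RefSeq promoter sequences (build GRCm38.p6, 250 bases before to 50 after the transcript start) were found for 25 of the 34 genes, in 38 entries. Those of 4 called genes, and of the most abundant gene, are shown to set their base composition side by side, 5′ to 3′ on the strand of the gene, with each CpG dinucleotide in capitals. Kcnn3 (chr3:89519914-89520213, plus strand) and Kcnk1 (chr8:125994852-125995151, plus strand) are those that rose. Cacna1e (chr1:154725871-154726170, minus strand) and Cacna2d2 (chr9:107399630-107399929, plus strand) are those that fell, and Kcnk16 (chr14:20269220-20269519, minus strand) has the highest level. Kcnk3 and Cacna1a had no entry.
Kcnn3: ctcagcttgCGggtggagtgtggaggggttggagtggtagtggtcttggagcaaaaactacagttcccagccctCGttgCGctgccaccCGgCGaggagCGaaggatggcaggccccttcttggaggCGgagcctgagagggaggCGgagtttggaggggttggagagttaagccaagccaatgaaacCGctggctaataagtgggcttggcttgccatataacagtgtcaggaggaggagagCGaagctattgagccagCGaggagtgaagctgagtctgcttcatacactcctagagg
Kcnk1: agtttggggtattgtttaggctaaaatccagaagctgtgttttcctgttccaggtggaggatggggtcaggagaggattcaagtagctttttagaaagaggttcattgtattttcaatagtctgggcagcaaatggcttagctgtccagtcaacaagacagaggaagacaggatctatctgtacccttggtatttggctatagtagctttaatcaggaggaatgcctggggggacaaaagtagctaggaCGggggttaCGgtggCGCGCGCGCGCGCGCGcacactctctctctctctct
Cacna1e: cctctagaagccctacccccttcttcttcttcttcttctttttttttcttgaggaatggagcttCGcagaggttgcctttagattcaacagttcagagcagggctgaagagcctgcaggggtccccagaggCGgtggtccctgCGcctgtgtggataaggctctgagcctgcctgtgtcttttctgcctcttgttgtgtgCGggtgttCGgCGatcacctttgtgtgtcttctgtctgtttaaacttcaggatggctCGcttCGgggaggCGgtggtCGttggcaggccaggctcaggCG
Cacna2d2: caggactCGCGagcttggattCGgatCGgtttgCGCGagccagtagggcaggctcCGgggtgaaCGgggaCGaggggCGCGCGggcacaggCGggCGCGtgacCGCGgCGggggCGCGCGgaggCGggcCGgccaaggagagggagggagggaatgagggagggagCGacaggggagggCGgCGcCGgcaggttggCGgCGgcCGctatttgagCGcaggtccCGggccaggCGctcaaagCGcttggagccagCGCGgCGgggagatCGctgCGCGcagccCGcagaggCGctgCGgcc
Kcnk16: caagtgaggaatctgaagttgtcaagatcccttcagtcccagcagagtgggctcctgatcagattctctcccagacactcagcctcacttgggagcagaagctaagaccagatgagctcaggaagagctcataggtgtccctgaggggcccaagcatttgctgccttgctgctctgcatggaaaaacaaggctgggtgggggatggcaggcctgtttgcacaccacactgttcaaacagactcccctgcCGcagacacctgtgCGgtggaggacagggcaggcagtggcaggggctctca
The Cacna2d2 promoter holds 43 CpG dinucleotides, where 2.61% of the 32851 promoters in the table hold as many or more. Kcnn3, Cacna1e and Kcnk1 hold 11, 11 and 10. The Kcnk16 promoter holds 2, and 23.3% of all promoters hold no more than that. The abundant leak channel gene and the low calcium auxiliary gene thus hold the fewest and the most CpG dinucleotides of the 5 shown. Over the 38 entries the median was 14, against 7 over all promoters. The GC box GGGCGG was in 17 of the 38 entries, read on both strands, and in 35.7% of all promoters. The TATA box TATAAA was in 2 and in 13.6% of all promoters, while the cAMP response element TGACGTCA and the E-box CACGTG were in 0 and in 1.79% and 7.15% of all promoters. A match describes these letters in this window and no more.

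Potassium channels that calcium opens make the slow afterhyperpolarisation between bursts. Kcnn3 encodes a pore subunit of the small-conductance type, which intracellular calcium gates through bound calmodulin. It had 57.9, 62.0 and 72.5 CPM in high fat libraries 1, 2 and 3, against 37.5, 47.2 and 41.1 CPM in normal diet libraries 1, 2 and 3. All high fat libraries were above all normal diet libraries, and high fat library 3 was the highest. The log2 fold change was 0.61 (SE 0.119, edgeR adjusted p = 0.026), and leaving out 1 library moved it between 0.52 and 0.69. The locus spans 89323979 to 89479966 of chromosome 3 (mm9, plus strand) and shares no exonic base with another locus. The other small-conductance pore genes were low: Kcnn1 averaged 5.62 ± 1.29 CPM on the high fat diet and 4.97 ± 0.715 CPM on the normal diet, and Kcnn2 1.20 ± 0.352 and 1.42 ± 0.275 CPM (SD, n = 3 each), with overlapping libraries in both. Per kilobase of exon Kcnn3 stood at 5.59 CPM on the high fat diet and 3.66 CPM on the normal diet, against 1.21 and 1.07 CPM for Kcnn1 and 0.203 and 0.240 CPM for Kcnn2, so that it was the most abundant of the small-conductance genes on either diet.

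Kcnma1 encodes the pore of the large-conductance channel, which voltage and calcium open together, and Kcnmb2 and Kcnmb4 are the listed genes of its beta subunits. Kcnma1 had 67.99, 72.1 and 73.8 CPM in high fat libraries, against 60.8, 60.1 and 62.2 CPM in normal diet libraries, with no overlap, but its log2 fold change of 0.22 (SE 0.0767) did not pass the test (edgeR adjusted p = 0.087) and was 0.085 with cyclic loess and limma (adjusted p = 0.56). Kcnmb2, which can inactivate the channel, had 55.2, 55.6 and 60.0 CPM in high fat libraries, against 50.2, 49.5 and 51.2 CPM in normal diet libraries. These libraries did not overlap either, at 0.18 on the log2 scale (edgeR adjusted p = 0.16), and 72.1% of the exonic bases of Kcnmb2 lie under an unnamed locus on the opposite strand, XLOC_022467, so its counts may be incomplete. Kcnmb4 was low, at 0.186 ± 0.0501 and 0.234 ± 0.0610 CPM on the high fat and normal diets. The pore gene and Kcnmb2, the more abundant beta subunit gene of the list, were thus both higher in all high fat libraries, by amounts that did not pass the test. Kcnmb3, a beta subunit gene outside the list, was lower in all high fat libraries. It averaged 9.74 ± 0.662 and 14.4 ± 3.56 CPM on the high fat and normal diets. Its log2 fold change of -0.57 (SE 0.172) did not pass either (edgeR adjusted p = 0.064). Kcnmb1 averaged 2.79 and 3.77 CPM, with overlapping libraries.

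Tandem-pore potassium channels carry leak current and hold the resting potential. Kcnk16, which encodes the TALK-type leak channel abundant in beta cells, had the highest level of the 34 genes, with 594, 602 and 475 CPM in high fat libraries, against 356, 467 and 429 CPM in normal diet libraries. High fat libraries were all above normal diet libraries, the lowest of them being library 3. The log2 fold change was 0.41 (SE 0.126), just outside the threshold (edgeR adjusted p = 0.065). It was 0.15 with cyclic loess and limma (adjusted p = 0.49), and leaving out 1 library gave 0.29 to 0.52, the lowest without normal diet library 1 (edgeR adjusted p = 0.24). Per kilobase of exon it averaged 163 ± 20.8 CPM on the high fat diet and 122 ± 16.5 CPM on the normal diet (SD, n = 3 each), which was 65.4% and 60.9% of the summed CPM per kilobase of the 15 potassium channel genes listed.

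Kcnk1, which encodes a TWIK-type leak channel subunit, had 66.9, 67.0 and 55.3 CPM in high fat libraries, against 42.0, 49.4 and 40.4 CPM in normal diet libraries. No libraries of the diets overlapped, and high fat library 3 was again the lowest of its diet. The log2 fold change was 0.52 (SE 0.114, edgeR adjusted p = 0.031), with 0.45 to 0.61 when 1 library was left out. The locus spans 128519002 to 128554585 of chromosome 8 (mm9, plus strand). Per kilobase it was the third of the 34 genes, at 26.2 ± 2.80 CPM on the high fat diet and 18.3 ± 1.99 CPM on the normal diet.

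Kcnk3 encodes an acid-sensitive (TASK-type) leak channel. It had 5.43, 5.57 and 6.05 CPM in high fat libraries, against 8.12, 8.07 and 8.45 CPM in normal diet libraries. The diets did not overlap, and libraries within a diet lay close together. The log2 fold change was -0.53 (SE 0.118, edgeR adjusted p = 0.033), between -0.57 and -0.49 when 1 library was left out. Its locus spans 30890543 to 30927747 of chromosome 5 (mm9, plus strand), was linked by the intron of a 2-exon transcript, and shares 5.32% of its exonic bases with a locus linked to Gm9899. Kcnk2, a mechanically gated (TREK-type) leak channel gene, was low at 0.421 ± 0.0442 and 0.646 ± 0.0508 CPM on the high fat and normal diets. Its libraries did not overlap, and its log2 fold change of -0.61 (SE 0.202) did not pass (edgeR adjusted p = 0.080) and was -0.32 with cyclic loess and limma (adjusted p = 0.37). Kcnj6, which encodes an inward rectifier opened by G proteins, was at 6.47 ± 0.699 CPM on the high fat diet and 6.27 ± 0.436 CPM on the normal diet, with overlapping libraries. Among the leak channel genes of the list Kcnk16 and Kcnk1 were thus higher in all high fat libraries and the less abundant Kcnk3 and Kcnk2 lower. Kcnk1 and Kcnk3 passed the test. Leak channel genes outside the list did not all follow that order of level. Kcnk10 averaged 4.13 and 2.39 CPM on the high fat and normal diets (edgeR adjusted p = 0.043). Kcnk12 averaged 12.3 and 14.2 CPM (edgeR adjusted p = 0.44).

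Delayed-rectifier and related voltage-gated potassium channels end the action potential. Kcnb2, a delayed-rectifier pore gene, was at 17.5 ± 0.532 CPM on the high fat diet and 16.1 ± 0.973 CPM on the normal diet, and Kcnq1, whose channel is best known from heart and inner ear, at 1.52 ± 0.518 and 1.76 ± 0.261 CPM (SD, n = 3 each). The ERG-type genes differed in spread. Kcnh2 had 56.9, 56.2 and 23.4 CPM in high fat libraries, against 45.8, 59.8 and 57.0 CPM in normal diet libraries. High fat library 3 alone was low, and without it the log2 fold change turned from -0.25 to 0.07, neither past the test (edgeR adjusted p = 0.58 and 0.68). Kcnh6 had 35.2, 31.9 and 20.9 CPM in high fat libraries, against 39.2, 40.5 and 36.1 CPM in normal diet libraries. All high fat libraries lay below, library 3 furthest, at -0.40 on the log2 scale (SE 0.175, edgeR adjusted p = 0.16), and at -0.20 without that library (adjusted p = 0.13).

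**Figure D3:**
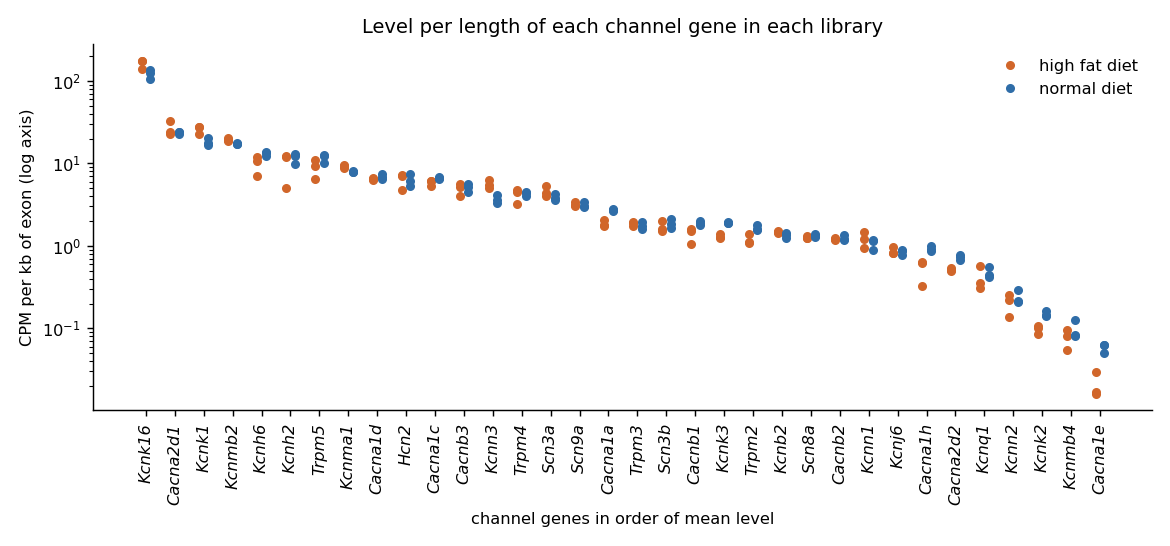
CPM per kilobase of exon of each channel gene in each library on a log axis, in order of the mean over 6 libraries, with high fat diet points left of normal diet points. The order runs from Kcnk16 at 163 CPM per kilobase on the high fat diet to Cacna1e at 0.0210, and high fat library 3 gives the low points of Kcnh2 and Kcnh6.

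Voltage-gated calcium channels couple the action potential to granule release, and their pore subunits give the current type. All 5 pore genes listed had log2 fold changes below 0, with a median of -0.53, and 2 of them passed the test. Cacna1a, the P/Q-type pore gene, had 36.1, 31.8 and 30.9 CPM in high fat libraries, against 48.7, 48.1 and 45.9 CPM in normal diet libraries. The highest high fat library was below the lowest normal diet library. The log2 fold change was -0.53 (SE 0.0929, edgeR adjusted p = 0.022), and -0.59 to -0.48 when 1 library was left out. It was the member with the smallest adjusted p, and spans 86912340 to 87164237 of chromosome 8 (mm9, plus strand).

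Cacna1e, the R-type pore gene, had the lowest level per length of the 34 genes. It had 0.230, 0.217 and 0.401 CPM in high fat libraries, against 0.840, 0.684 and 0.842 CPM in normal diet libraries, or -1.46 on the log2 scale (SE 0.276, edgeR adjusted p = 0.025). High fat library 3 was the highest of the high fat libraries, and without it the fold change was -1.81. The locus spans 156239118 to 156573143 of chromosome 1 (mm9, minus strand). Cacna1h, the T-type pore gene, had 5.23, 5.35 and 2.74 CPM in high fat libraries, against 7.23, 7.80 and 8.43 CPM in normal diet libraries. It too was lower in all high fat libraries, at -0.82 (SE 0.239), just outside the threshold (edgeR adjusted p = 0.059).

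The L-type pore genes, which carry most of the calcium current of mouse beta cells, differed least. Cacna1c had 90.5, 92.4 and 79.9 CPM in high fat libraries, against 100.8, 98.0 and 102.1 CPM in normal diet libraries, at -0.19 (SE 0.0838, edgeR adjusted p = 0.15). Cacna1d had 77.2, 75.5 and 79.9 CPM in high fat libraries, against 88.4, 81.7 and 77.4 CPM in normal diet libraries, at -0.09 (SE 0.0820, edgeR adjusted p = 0.48). Cacna1c did not overlap between the diets and Cacna1d did. Of the summed CPM per kilobase of the 5 pore genes, Cacna1d made up 43.8 ± 2.83% on the high fat diet and 39.7 ± 1.67% on the normal diet, Cacna1c 39.7 ± 1.78% and 38.9 ± 1.28%, Cacna1a 12.7 ± 0.741% and 15.7 ± 0.320%, Cacna1h 3.54 ± 1.08% and 5.37 ± 0.537%, and Cacna1e 0.144 ± 0.0584% and 0.340 ± 0.0371% (SD, n = 3 each). L-type genes were thus the bulk of the summed RNA of these 5 pore genes on either diet, and a share falls when others rise. Pore genes outside the list, such as Cacna1b and Cacna1g, were not in the sum. The share of Cacna1a was lower in every high fat library than in any normal diet library.

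**Figure D4:**
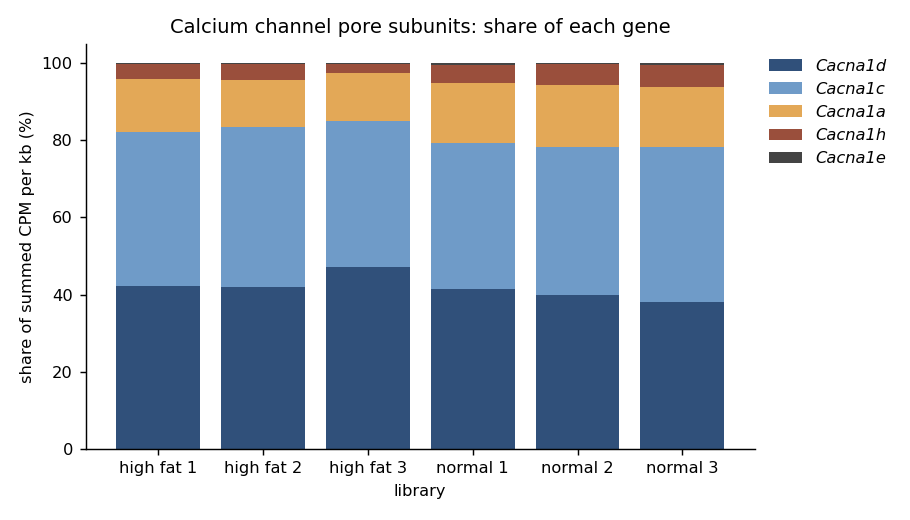
Share, in percent, of the summed CPM per kilobase of exon held by each calcium channel pore gene in each library, high fat libraries left and normal diet libraries right. Cacna1d and Cacna1c hold most of each bar, and Cacna1a holds 12.7% on average in high fat libraries, against 15.7% in normal diet libraries.

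Auxiliary subunits carry the calcium channel pore to the membrane and tune its gating. Cacna2d2, an extracellular alpha-2-delta subunit gene, had 3.00, 2.96 and 3.25 CPM in high fat libraries, against 4.03, 4.33 and 4.67 CPM in normal diet libraries. The diets did not overlap, and the log2 fold change was -0.50 (SE 0.136), at the threshold (edgeR adjusted p = 0.0494). The locus spans 107302211 to 107431812 of chromosome 9 (mm9, plus strand). Cacna2d1, a gene of the same family and the second of the 34 per kilobase, had 292, 302 and 411 CPM in high fat libraries, against 304, 306 and 286 CPM in normal diet libraries. Only high fat library 3 stood above the rest, and without it the log2 fold change was -0.0034, against 0.16 with it (edgeR adjusted p = 0.98 and 0.41). Per kilobase Cacna2d1 stood at 26.3 CPM on the high fat diet and 23.4 CPM on the normal diet, against 0.515 and 0.728 CPM for Cacna2d2.

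Of the intracellular beta subunit genes none passed the test. Cacnb1 averaged 6.46 ± 1.36 CPM on the high fat diet and 8.71 ± 0.545 CPM on the normal diet (SD, n = 3 each), with all high fat libraries lower, at -0.43 (edgeR adjusted p = 0.12). Cacnb2 averaged 20.8 ± 0.475 and 21.5 ± 1.84 CPM, and Cacnb3 17.8 ± 3.11 and 18.3 ± 1.99 CPM on the high fat and normal diets. Both overlapped between the diets, and 65.6% and 36.1% of their exonic bases lie under Nsun6 and Ddx23 on the opposite strand, so that their levels may be too low. Cacnb3 was the most abundant of the 3 per kilobase, with 65.4 ± 1.75% of their sum on the high fat diet and 61.9 ± 2.27% on the normal diet. That order rests on the exon lengths used, 3586 bases for Cacnb3 and 17169 for Cacnb2, and on overlapped exons where reads may be missing.

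Sodium channels add to the upstroke of the action potential. None of the 4 genes passed the test, and none was free of overlap. Scn3a, a pore gene, had 53.5, 58.5 and 70.5 CPM in high fat libraries, against 50.6, 48.3 and 56.1 CPM in normal diet libraries, a log2 fold change of 0.24 (edgeR adjusted p = 0.20). Scn9a, the other pore gene reported in mouse islets, averaged 40.4 ± 2.55 and 39.6 ± 2.70 CPM on the high fat and normal diets, with 36.5% of its exonic bases under a locus linked to Gm13629. The pore gene Scn8a averaged 18.5 ± 0.710 and 19.2 ± 0.870 CPM and the beta subunit gene Scn3b 9.54 ± 1.44 and 10.3 ± 1.32 CPM (SD, n = 3 each).

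Hcn2, which encodes a channel opened by hyperpolarisation and cyclic nucleotides, averaged 20.7 ± 4.60 CPM on the high fat diet and 20.4 ± 3.33 CPM on the normal diet. Of the TRPM genes, Trpm4 and Trpm5 encode cation channels that calcium opens, Trpm2 a calcium-permeable channel gated by ADP-ribose, and Trpm3 a calcium-permeable channel that responds to pregnenolone sulfate. Trpm5 had 99.5, 143 and 169.5 CPM in high fat libraries, against 157, 190.1 and 195 CPM in normal diet libraries. High fat library 1 was the lowest and library 3 was within the normal diet range, and the log2 fold change of -0.40 (SE 0.177) did not pass (edgeR adjusted p = 0.16). It was -0.20 without high fat library 1 (edgeR adjusted p = 0.33), -0.57 without library 3, -0.68 with the acinar covariate (edgeR adjusted p = 0.15) and -0.62 with cyclic loess and limma (adjusted p = 0.093). Trpm2 averaged 12.2 ± 1.70 and 16.7 ± 1.31 CPM on the high fat and normal diets, with no overlap, at -0.46 (SE 0.131), just outside the threshold (edgeR adjusted p = 0.056). Trpm3 averaged 86.0 ± 4.57 and 81.2 ± 8.67 CPM, and Trpm4 18.3 ± 3.75 and 18.9 ± 1.27 CPM. Trpm4 stood at -0.04 on the log2 scale with all libraries and at 0.12 without high fat library 3, neither past the test (edgeR adjusted p = 0.87 and 0.38).

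The span of 17 of the 34 genes was overlapped by other assembled loci, 26 in all, of which 21 lay on the opposite strand, 2 on the same strand and 3 had no strand. Of the 20 that were tested 1 was lower and 0 were higher at the adjusted threshold, against 10.8% of all loci tested called in either direction. The locus that fell, XLOC_010007, lies inside Cacna1d on the opposite strand (chromosome 14 of mm9, 30974093 to 30988482) and was linked to no gene. It had 2.94, 2.45 and 2.55 CPM in high fat libraries, against 5.51, 3.67 and 4.09 CPM in normal diet libraries, at -0.74 (SE 0.184, edgeR adjusted p = 0.041). Its libraries did not overlap between the diets, while those of Cacna1d did. XLOC_033030, of 86111 exonic bases on the strand opposite to Kcnq1, was singled out after its values were seen. The link by exon and intron lengths gave it no gene, which does not mean that it is an unknown locus. It had 31.5, 27.3 and 28.7 CPM in high fat libraries, against 77.0, 42.0 and 35.4 CPM in normal diet libraries, with normal diet library 1 far above the others, and did not pass (-0.82, SE 0.252, edgeR adjusted p = 0.067). Kcnq1 itself shares 3.25% of its exonic bases with that locus.

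Genes around these channels were counted in lists of the same pathway. The 7 lists hold 188 gene symbols, with Scn2a and Slc8b1 also entered under the older symbols Scn2a1 and Slc24a6. Of these, 149 could be tested, of which 17 were higher and 10 lower. These are 11.4% and 6.71% of the genes tested, where 5.95% and 4.86% of all loci tested were called higher and lower, and the difference from all loci was not tested. The edgeR adjusted p-values of the called genes named below lay between 0.0180 and 0.0484. In the list of ATP-sensitive coupling 0 of 3 tested genes were called in either direction by edgeR, 0 at an unadjusted p under 0.05. Abcc8 and Slc2a2, which encode the sulfonylurea receptor and the main glucose transporter, lie under another locus for 96.6% and 100% of their exonic bases and held 0.171 and 0 CPM on the high fat diet and 0.239 and 0 CPM on the normal diet, so that their loci do not measure these genes. Kcnj11, which encodes the pore of the channel of Abcc8, is in that list but was linked to no locus, so it could not be tested.

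Of 26 other voltage-gated potassium channel genes tested, subunits included, 4 rose and 2 fell. The genes for the modulatory subunit Kcns3 and the calcium-binding subunits Kcnip2 and Kcnip1 rose by 1.41, 1.26 and 0.65 on the log2 scale, with Kcnip1 at 130.2 ± 11.7 CPM on the high fat diet and 83.1 ± 10.5 CPM on the normal diet. Kcnq3 and Kcnd3, both pore genes, fell by 1.48 and 1.00. Of 20 other calcium-activated, inward-rectifier and tandem-pore genes Kcnk10, a leak channel gene, rose by 0.79 and Kcnj12, an inward rectifier gene, fell by 0.73. Of 20 other calcium and sodium channel genes Cacng3 rose by 1.55, at 0.323 ± 0.0594 and 0.109 ± 0.00805 CPM on the high fat and normal diets. Cacna1g, a second T-type pore gene, fell by 1.18, Cacna2d4 by 0.91 and the sodium pore gene Scn1a by 1.14. The median log2 fold change of that list was -0.43, against -0.05 over all loci tested.

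Of 31 other cation, TRP and chloride channel genes tested 5 rose and 2 fell. Trpc4, a receptor-operated cation channel gene, rose by 0.88 (23.8 ± 0.0633 CPM on the high fat diet, 12.9 ± 2.21 CPM on the normal diet), Pkd2 by 0.29 and the chloride importer gene Slc12a2 by 0.40. Slc12a5, which encodes a chloride exporter, and Clcn6 fell by 0.72 and 0.34. Of 38 genes of calcium stores, pumps and entry 4 rose and 2 fell. Calm2, which encodes the calmodulin that gates small-conductance channels, rose by 0.35, and the store sensor gene Stim2 by 0.36. Itpr1, a calcium release channel gene of the endoplasmic reticulum, fell by 0.50 (191 ± 22.3 CPM on the high fat diet, 271 ± 18.4 CPM on the normal diet), and Atp2a1 by 1.12. Of 11 sodium pump and gap junction genes 2 rose, Atp1b1 by 0.46 and Atp1b3 by 0.39, and 0 fell. The calls of these lists rested on the same libraries. Without high fat library 1 or 2 or any normal diet library 0 or 1 of the genes passed, where 0% to 0.513% of all loci did. Without high fat library 3, 46 passed, where 20.2% of all loci did, against 10.8% with all libraries.

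Markers of islet and other cells were counted in the same way, against the 5.95% and 4.86% of all loci that were called higher and lower. In whole islets fewer cells of a type and less RNA per cell cannot be told apart. Beta-cell markers that could be summed (6 of 9 listed) took 84423 to 103794 CPM in high fat libraries, against 58578 to 68868 CPM in normal diet libraries, with 2 higher and 0 lower. Alpha-cell markers (6 of 8) took 18498 to 22032 CPM, against 23055 to 25464 CPM, with 1 higher and 3 lower. Neurons carry several of the calcium channels described here. Of 12 neuron markers tested 2 fell, and 8 of the 13 linked were lower in all high fat libraries, where 20.4% of all loci tested were wholly below, although their sum of 373 to 431 CPM overlapped that of 410 to 441 CPM in normal diet libraries. That sum averaged 409 ± 31.5 CPM on the high fat diet and 422 ± 16.6 CPM on the normal diet. The median log2 fold change of the neuron markers tested was -0.62. Among them Chat, picked after its values were seen, stood at 0.280 ± 0.241 and 0.914 ± 0.0886 CPM on the high fat and normal diets. It was short of the threshold (edgeR adjusted p = 0.064). Nos1 passed it, at 1.01 ± 0.589 and 3.34 ± 0.318 CPM. These 2 low genes do not stand for the list. Of 7 Schwann cell markers 3 fell, with sums of 17.5 to 25.9 CPM on the high fat diet and 27.2 to 30.8 CPM on the normal diet. Of 12 stromal markers 2 rose and 1 fell, of 5 myeloid markers tested 1 fell, and of 21 acinar markers 1 rose. Of the delta, PP, duct, endothelial and lymphocyte markers tested (4, 2, 4, 7 and 3) edgeR called 0. Among them Hhex, Rbp4, Spp1, Tek and Cd79a had an unadjusted p under 0.05, as did 7623 of all 23983 loci tested. Of the lists summed, 0 genes were at 0 in every library. The part of these cells in the channel results was not tested.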

How the data were processed

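Islet total RNA was depleted of ribosomal RNA and sequenced without poly(A) selection from a stranded kit, per the labels' protocols. TopHat2 2.0.8 and Cufflinks 2.1.1 are listed with build mm9 in the submitters' processing notes, as are HTSeq 0.5.4p3 and edgeR. Strand use in counting is not given in the sources used here. The authors deposited raw counts per assembled locus, a table of scaled counts that was not used, and transcript coordinates, which name no genes. Loci were linked to GENCODE M21 genes by ordered intron and internal exon lengths on the same chromosome and strand, with no conversion of coordinates: 31 of the 34 genes by a complete chain with a UCSC identifier, Scn9a by an assembled chain, and Kcnk3 and Kcnb2 by the intron of a 2-exon transcript, for Kcnb2 with 1 matching end. Genes with over 90% of exonic bases shared were left out. Shared bases lie on opposite strands, and reads there may have gone uncounted.

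Counts were tested in R 4.3.3 with edgeR 4.0.16 (filterByExpr, TMM, quasi-likelihood, diet alone, two-sided, Benjamini-Hochberg over 23983 loci). The SE is the absolute log2 fold change over the square root of F. Exon length is that of all exons of a locus joined, those of assembled transcripts included, so levels per kilobase depend on the assembly. Alternatives used DESeq2 1.42.0 and limma 3.58.1. Described in full are the genes past the threshold and the 6 others highest per kilobase; Kcnma1, the calcium pore genes, Scn3a and other members given by library were added after their values were seen. In each pathway list up to 3 genes per direction are named, besides Abcc8 and Slc2a2; some genes that this rule names are not reported here. The members and lists were chosen with earlier results of these data known. Chat was likewise named after its values were seen.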

Additional observations from a re-analysis of the deposited data

How the results depend on the processing

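Across the alternatives 24 of the 34 genes kept their direction in all 12, and the median log2 fold change of the 34 stayed within 0.0587, the spread between libraries, of its value. Cacna1a kept its call in 5 of 12, Kcnn3, Kcnk1, Kcnk3 and Cacna1e in 4 and Cacna2d2 in 2. Called in either direction were 11.5% of all loci with DESeq2's size factors, and 12.3% by its Wald test and 7.06% with no filter, both of 33177 loci. Cyclic loess with limma called 0 higher and 1 lower, Cacna1a, and 6 pathway genes (2.01% of all loci). With the level of acinar markers as a covariate 0 higher, 0 lower and 0 pathway genes passed. Leaving out 1 library gave 0 to 3 higher, 0 to 7 lower and 0 to 46 pathway genes. In these fits 0% to 20.2% of all loci were called, with fewer libraries in each, and the cause was not tested. A replicate block gave 0 higher, 0 lower and 1 pathway gene (0.309% of all loci). The labels do not say that replicate numbers pair the libraries, and deviations of same-numbered libraries correlated at -0.075, 0.075 and -0.014, with not every library closest to its own number. Directions turned, all in genes that did not pass, under cyclic loess for Hcn2 (-0.046), Kcnmb4 (0.051), Trpm3 (-0.067), Scn9a (-0.075) and Cacna2d1 (-0.090), with the acinar covariate for Hcn2 (-0.020) and by DESeq2 for Trpm4 (0.00030). Leaving out 1 library turned Hcn2 (-0.10 to 0.20), Kcnj6 (-0.038 to 0.10), Cacnb3 (-0.15 to 0.10), Scn9a (-0.028 to 0.076), Cacna2d1 (-0.0034 to 0.26), Kcnh2 (-0.44 to 0.067), Trpm4 (-0.14 to 0.12), Cacnb2 (-0.12 to 0.0022) and Trpm3 (-0.0070 to 0.15). Leaving out genes that share over 10% of exonic bases left 2 higher and 4 lower, and leaving out those linked by 2-exon transcripts 2 and 3. Depth limits mainly Cacna1e, Kcnk2 and Kcnmb4, below 1 CPM.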
